A study of Mus musculus with 9 samples.

Results

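The 10 genes described here, Zeb1, Zeb2, Snai1, Snai2, Twist1, Cdh1, Cdh2, Vim, Epcam and Fn1, are the ones most often used to follow the epithelial-to-mesenchymal transition (EMT). They were chosen by gene name, and all 10 were found among the 29069 genes of the deposited table. Each had a mean above 5 normalised counts over all 9 samples and so was among the 18156 genes tested.

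The D3 line of mouse embryonic stem cells (mESC), grown without feeder cells, was used. For 24 h they were kept in 1 of 3 media, with 3 replicates in each. GS was a serum-free medium (N2B27) with 20 ng/mL of leukaemia inhibitory factor (LIF), 1 µM of the MEK inhibitor PD0325901 and 3 µM of the GSK-3 inhibitor CHIR99021. DM was DMEM with 10% fetal bovine serum and neither inhibitor nor LIF, and NO was DM with 250 µM of the nitric oxide donor DETA/NO. DM against GS thus measured the release from the inhibitors, NO against DM measured the donor alone, and NO against GS measured both together. GS and DM differ in basal medium, serum, inhibitors and LIF all at once, so these cannot be told apart. RNA of each sample was isolated from a dish of its own. The labels do not say whether the 3 dishes of a medium were independent experiments, so the p-values measure only the spread between these samples, which may be technical.

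In an epithelium, cells are held together by E-cadherin, the product of Cdh1, which catenins tie to the actin cytoskeleton. During EMT, as in gastrulation, transcription factors of the Snail, Zeb and Twist families repress Cdh1 and other junction genes by binding E-box sequences, while N-cadherin (Cdh2), vimentin (Vim) and fibronectin (Fn1) are typically gained. The miR-200 family of microRNAs represses Zeb1 and Zeb2, and Zeb proteins in turn repress the miR-200 genes. Embryonic stem cells are themselves epithelial in that their colonies are held together by E-cadherin and Epcam, although they also contain vimentin.

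The seeds of the microRNAs and the E-boxes of the promoters are shown first, since they are the sequences through which these genes are known to act on each other. The mature microRNAs (RefSeq, GRCm38.p6) are printed 5′ to 3′ with the seed, bases 2 to 8, in capitals. The first 3 share one seed, the next 2 share another that differs from it, and miR-34a, which targets Snai1, has a seed of its own.
miR-200b-3p: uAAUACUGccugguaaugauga
miR-200c-3p: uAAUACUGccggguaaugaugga
miR-429-3p: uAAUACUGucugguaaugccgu
miR-200a-3p: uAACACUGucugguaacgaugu
miR-141-3p: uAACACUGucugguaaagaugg
miR-34a-5p: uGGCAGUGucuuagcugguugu

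The match to the first seed, CAGTATT, occurred 5 times in the 2401 bases of the longest annotated 3′ UTR of Zeb1 and 5 times in the 4941 bases of that of Zeb2. Among 2658 UTRs of a length like that of Zeb1, 24.2% held at least 1 match and 0.0376% held as many as Zeb1. Among 1046 UTRs of a length like that of Zeb2, 37.5% held at least 1 and 0.287% held as many. Each set of UTRs of like length includes that of the gene itself, and the 0.0376% is the UTR of Zeb1 alone. The match to the other miR-200 seed, CAGTGTT, occurred 4 times in each gene, a number reached by 0.188% of the UTRs like Zeb1 and by 1.53% of those like Zeb2. Snai1, Snai2 and Fn1 held 1 CAGTATT each, and Twist1, Cdh1, Cdh2, Vim and Epcam held none. The match to miR-34a, CACTGCC, occurred once in the UTR of Snai1, as in 9.08% of UTRs of like length, and in no other of the 10 genes. One of the Zeb2 matches, at base 393 of the UTR, is shown with its flanks and the match in capitals.
Zeb2 site: tgcccgcactaccatacatCAGTATTttat

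The E-box preferred by Snail and Zeb proteins, CACCTG or its reverse complement CAGGTG, was searched for on both strands from 250 bases before to 50 bases after each RefSeq gene start. Of 32851 such promoters, 20.2% held at least 1 E-box and 2.88% held 2 or more. An entry was found for 5 of the 10 genes. Epcam held 2 E-boxes, 187 and 19 bases before its start, and Snai1 held 1, 126 bases before its start, while Vim, Zeb2 and Twist1 held none in these windows. The windows below are on the plus strand of GRCm38.p6 with the E-box in capitals. A match of letters is a description and does not show binding.
Epcam, chr17:87635780-87635809: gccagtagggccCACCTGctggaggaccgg
Epcam, chr17:87635948-87635977: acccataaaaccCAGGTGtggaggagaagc
Snai1, chr2:167538057-167538086: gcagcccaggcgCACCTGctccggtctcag

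All values are the authors' DESeq2-normalised counts, rounded to whole numbers. The steps between low values correspond to an estimated 14312996 to 27061091 counted reads per sample, with 1 read worth 0.701 to 1.323 normalised counts. NO replicate 2 stood apart: on the first principal component of all tested genes (50.3% of the variance) the GS and DM libraries lay between -49.09 and -25.99, NO replicates 1 and 3 at 25.89 and 67.12, and NO replicate 2 at 131.25. The summed level of 12 pluripotency markers was 118546 to 121772 in GS, 102050 to 108098 in DM and 61067 to 100045 in NO, with all 12 detected in every sample. The lowest of these sums was that of NO replicate 2. Of 12 fibroblast and feeder markers, none was at 0 in all samples, Lum, Fap, Postn and Prrx1 did not exceed 5 normalised counts in any, and the sum ranged from 319 to 497 in GS, from 419 to 449 in DM and from 389 to 427 in NO. Members of this list differed in direction: Thy1 averaged 59.3 in GS, 196 in DM and 167 in NO, and Pdgfrb 288, 189 and 146. Fewer cells of a type and less RNA per cell cannot be told apart in such bulk samples. Differences are given as log2 fold changes of value + 1 with their standard error (SE), and a gene passed the test at an adjusted p under 0.05 (limma, Benjamini-Hochberg over all tested genes). Of the 12 pluripotency markers, 2 rose and 3 fell in DM against GS (4.37% and 2.32% of all tested genes). None rose and 2 fell in NO against GS (13.4% and 6.64%), and none rose and 4 fell in NO against DM (9.01% and 5.24%). Of 5 tested fibroblast and feeder markers, 1 rose in DM against GS, 2 rose and 1 fell in NO against GS, and 1 rose in NO against DM, beside the same shares.

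Divided by exon length, the 10 genes covered a wide range of levels, and the order was led by the matrix and structural genes. In GS, Fn1 stood at 3410 ± 416 normalised counts per kb of exon (SD, n = 3), Vim at 1300 ± 142, Cdh1 at 962 ± 202 and Epcam at 355 ± 27.6. Snai1 at 55.9 ± 4.95, Zeb1 at 36.3 ± 3.29 and Cdh2 at 32.1 ± 4.22 followed, and Zeb1 and Cdh2 differed by less than the spread of Cdh2. Twist1 at 7.99 ± 1.63, Snai2 at 4.95 ± 2.16 and Zeb2 at 0.401 ± 0.219 were the lowest. In DM and NO the 3 highest genes by mean were still Fn1, Vim and Cdh1, and Zeb2 was again the lowest. Zeb2 rested on an estimated 6 to 35 reads per sample, Snai2 on 4 to 29 and Twist1 on 9 to 43, so moderate differences in these 3 genes were not detectable at this depth. The plot of levels per exon length shows this order.

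**Figure D1:**
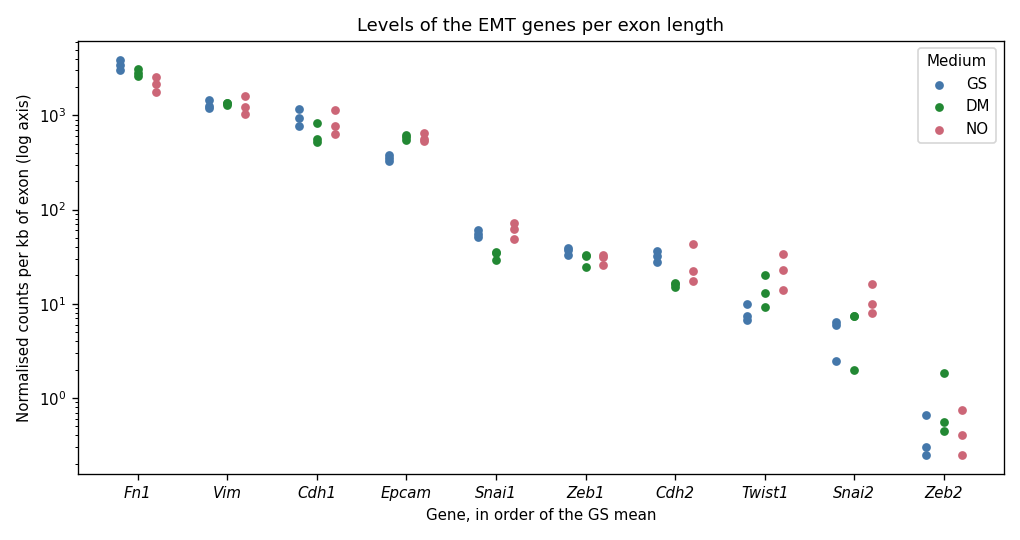
Normalised counts per kb of exon (log axis) of the 10 EMT genes, in order of their GS mean, with 1 point per sample (blue GS, green DM, red NO, 3 samples each). Fn1, Vim, Cdh1 and Epcam lie above all the transcription factors and Cdh2, and Zeb2 lies lowest, at 0.251 to 1.86.

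Release from GS to DM left most of the EMT genes without a detectable change. Epcam rose, and it was the only one of the 10 genes to pass the test, where 6.69% of all tested genes passed in either direction. No member also reached a 2-fold change, against 4.20% of all tested genes. The lowest adjusted p-values after Epcam were those of Cdh2 and Snai1, both with a lower mean in DM. The GS and DM values did not overlap for 3 members (Snai1, Cdh2 and Epcam), against 29.6% of all tested genes.

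With the donor added to DM, Snai1 rose, the only one of the 10 genes to pass between NO and DM, where 14.2% of all tested genes passed. No member combined this with a 2-fold change, against 8.55% of all tested genes. Between NO and GS, Epcam and Twist1 rose and Fn1 fell, so that 3 of 10 passed against 20.0% of all tested genes, and Twist1 alone also exceeded 2-fold, against 11.7%. Values did not overlap for 4 members in NO against DM (33.4% of all tested genes) and for 4 in NO against GS (39.1%). A test for any difference among the 3 media (moderated F test) was passed by Epcam (adjusted p = 0.0037), Snai1 (0.0289) and Fn1 (0.0435), 3 of 10 where 23.3% of all tested genes passed. The comparisons share libraries, so they are not independent of each other.

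**Figure D2:**
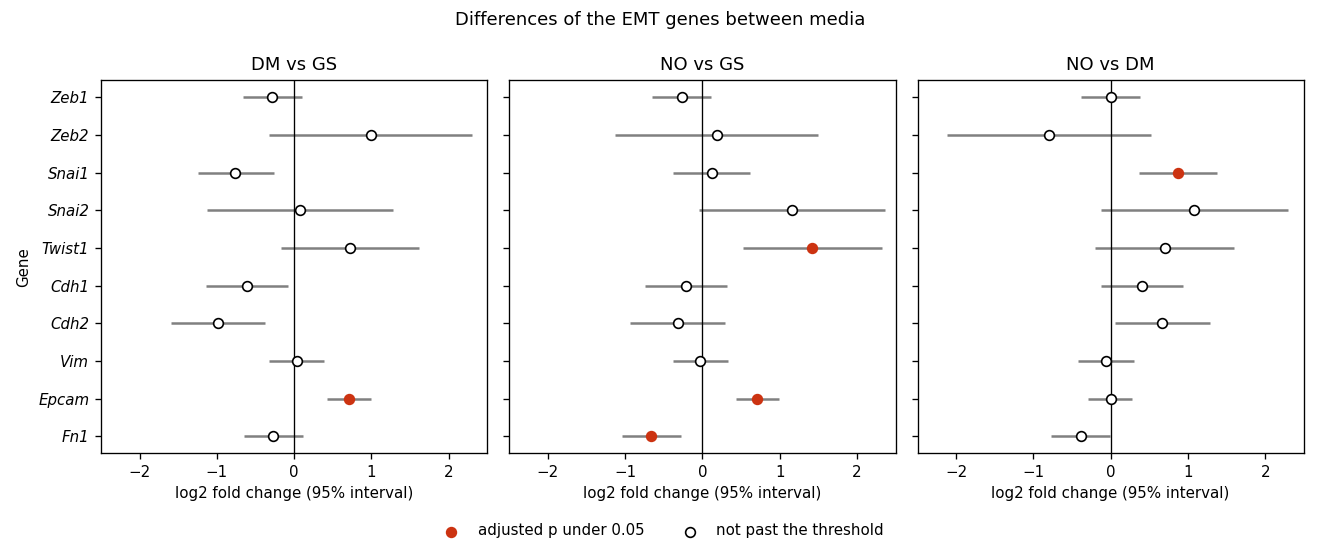
Log2 fold changes of the 10 EMT genes between media (limma, n = 3 per medium), with bars for the 95% confidence interval and filled points for an adjusted p under 0.05. Epcam is filled in both comparisons with GS, at 0.71 in each, Twist1 (1.42) and Fn1 (-0.66) in NO against GS, and Snai1 (0.87) in NO against DM.

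Among the Snail factors, Snai1 (chr2:167538195-167542814, plus strand) encodes the zinc-finger repressor that acts first at many EMT events and binds the Cdh1 E-boxes. It measured 83, 90 and 99 normalised counts under GS, 47, 57 and 56 under DM and 79, 101 and 118 under NO. The 3 DM samples were lower than all the others, and GS and NO overlapped. Snai1 rose in NO against DM by 0.87 ± 0.23 (SE) on the log2 scale (95% interval 0.37 to 1.37, adjusted p = 0.028, limma, higher in 3 of 3 samples). Against GS the difference was -0.76 ± 0.23 in DM (adjusted p = 0.075) and 0.12 in NO (interval -0.38 to 0.61, adjusted p = 0.761). Both of the larger differences use the same 3 low DM samples. Without NO replicate 2 the rise was 0.85 with an adjusted p of 0.0623, and it also missed the threshold without any 1 of the DM replicates (0.0549 to 0.0963) or without NO replicate 3 (0.1). With only the 6 samples compared, the adjusted p was 0.0762 in NO against DM and 0.0492 in DM against GS, and after quantile normalisation the NO against DM difference was 0.55 with an adjusted p of 0.132. Snai1 is active in early mesoderm, and the summed level of 13 mesoderm markers was also lowest under DM, at 288 to 334 normalised counts, against 615 to 741 under GS and 357 to 786 under NO, with Msgn1 and Foxf1 at 5 or less in all samples. The sum of 786 was that of NO replicate 2. The genes of this list did not share a common order of media. Eomes went from a mean of 278 under GS to 134 under DM and 99.7 under NO, and T from 150 to 3.67 and 19.3. Mesp2 measured 19, 12 and 11 under GS, 26, 17 and 20 under DM and 59, 144 and 89 under NO. Of 11 of these markers tested, 3 fell in DM against GS (2.32% of all tested genes). In NO against GS 4 rose and 3 fell (13.4% and 6.64%), and in NO against DM 5 rose (9.01%). Mesp1 (means of 0.333, 3.33 and 12.0 under GS, DM and NO) and Lhx1 (0.667, 0.667 and 30.7) are among those that rose. Both met the minimum mean of 5 only through NO, so the filter favoured such rises. The part of these markers in the Snai1 levels was not tested.

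Snai2 (chr16:14705852-14709385, plus strand), or Slug, is the related repressor of neural crest and mesoderm. It was low throughout, at 5, 13 and 12 normalised counts under GS, 15, 15 and 4 under DM and 20, 33 and 16 under NO. The 3 NO samples were the highest, although the lowest of them exceeded the highest DM samples by a single normalised count. The differences of 1.16 ± 0.55 from GS (interval -0.05 to 2.37, adjusted p = 0.159, limma) and 1.08 ± 0.55 from DM (adjusted p = 0.204) did not pass.

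The Zeb factors showed no detectable difference between media. Zeb1 (chr18:5591860-5775467, plus strand), a zinc-finger and homeodomain repressor, measured 337, 404 and 378 normalised counts under GS, 342, 334 and 253 under DM and 320, 340 and 267 under NO. The 3 ranges overlapped, and NO differed from DM by 0.00 on the log2 scale, with an interval of -0.38 to 0.38 (adjusted p = 0.995, limma). Against GS the difference was -0.28 in DM (adjusted p = 0.418) and -0.27 in NO (adjusted p = 0.288). Zeb2 (chr2:44983632-45117395, minus strand), which also partners Smad proteins, measured 6, 5 and 13 in GS, 9, 11 and 37 in DM and 5, 15 and 8 in NO. Its highest DM sample stood far above the other two, and the interval of the NO against DM difference ran from -2.12 to 0.52. Of the exon bases of Zeb2, 662 of 19942 are shared with Zeb2os, Mir5129 and Gm27761, and 198 of 10266 of Zeb1 with Gm10125. Reads assigned to more than 1 gene were left out of the counts.

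Twist1 (chr12:33957671-33959829, plus strand), a basic helix-loop-helix factor of mesoderm and cranial neural crest, measured 11, 16 and 12 normalised counts under GS, 21, 15 and 33 under DM and 23, 55 and 37 under NO. All NO samples exceeded all GS samples, and the DM values overlapped with both. It rose in NO against GS by 1.42 ± 0.41 on the log2 scale (interval 0.53 to 2.32, adjusted p = 0.031, limma), or 2.68-fold on the value + 1 scale. NO replicate 2 held the highest value, and without it the difference was 1.13 with an adjusted p of 0.106. The adjusted p also rose above the threshold without any 1 of the GS replicates (0.0556 to 0.0923) or without NO replicate 3 (0.0828), with no minimum mean (0.0609) and after quantile normalisation (a difference of 0.99, adjusted p = 0.0891). The steps from GS to DM (0.72, adjusted p = 0.36) and from DM to NO (0.70, adjusted p = 0.27) did not pass by themselves.

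**Figure D3:**
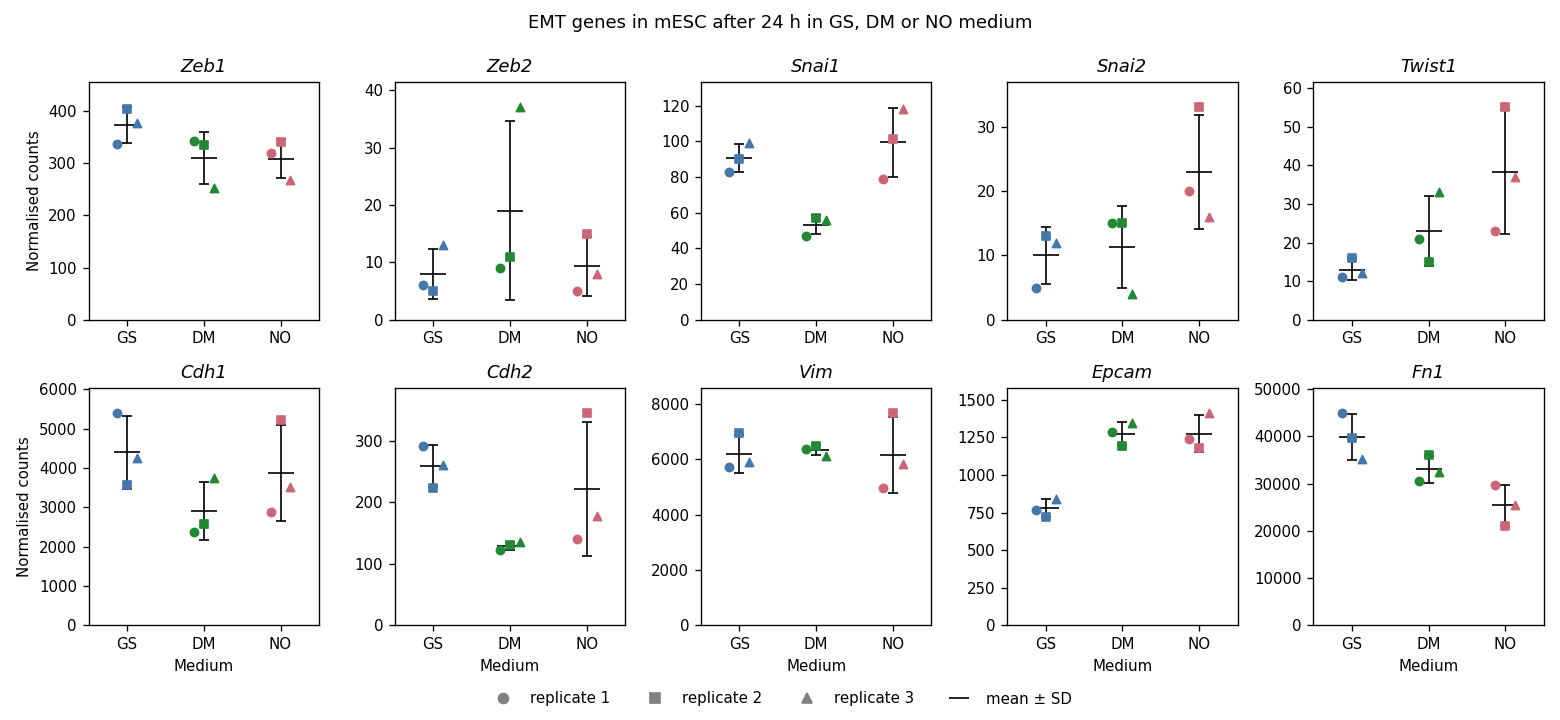
Normalised counts (axes from 0) of the 10 EMT genes in each sample by medium, with a symbol for each replicate number and black bars for the mean ± SD (n = 3). Epcam in DM and NO (1177 to 1410) lies above GS (723 to 843), Snai1 in DM (47 to 57) lies below GS and NO, and NO replicate 2 (red square) is the highest NO sample for Cdh1, Cdh2, Vim, Twist1, Snai2, Zeb1 and Zeb2.

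Of the cadherins, Cdh1 (chr8:106603351-106670246, plus strand) measured 5390, 3556 and 4254 normalised counts under GS, 2376, 2579 and 3750 under DM and 2869, 5227 and 3513 under NO. The media overlapped. DM differed from GS by -0.61 ± 0.24 (interval -1.14 to -0.08, adjusted p = 0.18, limma) and NO from DM by 0.40 ± 0.24 (interval -0.13 to 0.93, adjusted p = 0.286), neither of which passed. Cdh2 (chr18:16588877-16809246, minus strand) measured 292, 224 and 261 in GS, 123, 130 and 135 in DM and 141, 345 and 178 in NO. Its 3 DM samples lay within 12 counts of each other and below all GS and NO samples.

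The difference of Cdh2 between DM and GS was -0.99 ± 0.28 (interval -1.60 to -0.38), or 0.504-fold, with an adjusted p of 0.0601 (limma). This value depended on which NO libraries set the common spread: the adjusted p was 0.00564 with only the 6 GS and DM samples, 0.0249 without NO replicate 1 and 0.00352 without NO replicate 2. Cdh2 in NO differed from GS by -0.32 (adjusted p = 0.445) with all samples and by -0.70 (adjusted p = 0.033) without NO replicate 2. NO differed from DM by 0.66 (adjusted p = 0.131) with all samples and by 0.93 (adjusted p = 0.025) without NO replicate 1.

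Cdh2 was far below Cdh1 in every medium. Per kb of exon, its level was 3.37% of that of Cdh1 under GS, 2.58% under DM and 3.11% under NO (geometric mean of the ratios of the 3 samples). The log2 ratio of Cdh2 to Cdh1 by sample was -5.02, -4.81 and -4.85 in GS, -5.09, -5.13 and -5.61 in DM and -5.17, -4.74 and -5.12 in NO, so GS and NO overlapped and the lowest ratio was that of DM replicate 3. The cadherin with the smallest adjusted p in both comparisons with GS was P-cadherin, Cdh3 (chr8:106510891-106557297, plus strand), whose gene lies just before Cdh1 on the chromosome. Cdh3 measured 663, 529 and 474 normalised counts under GS, 1562, 1503 and 1565 under DM and 1275, 2111 and 1511 under NO. It rose by 1.49 ± 0.19 in DM (adjusted p = 0.000745, limma) and by 1.54 ± 0.19 in NO (adjusted p = 0.000662) against GS, and NO differed from DM by 0.05 (interval -0.36 to 0.46). Per kb of exon, the level of Cdh3 was 13.2% of that of Cdh1 in GS, 56.6% in DM and 44.4% in NO (geometric means as above).

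Of the matrix and structural genes, Epcam (chr17:87635979-87651129, plus strand), an epithelial adhesion molecule also used to mark undifferentiated stem cells, gave the most stable difference of the 10 genes. It measured 769, 723 and 843 normalised counts under GS, 1283, 1192 and 1347 under DM and 1236, 1177 and 1410 under NO. All 6 DM and NO samples exceeded all GS samples, and DM and NO overlapped. Epcam rose by 0.71 ± 0.13 in DM (interval 0.43 to 0.99, adjusted p = 0.00659, limma) and by 0.71 ± 0.13 in NO (interval 0.43 to 0.99, adjusted p = 0.00367). It passed in both comparisons under all 19 alternatives, with a highest adjusted p of 0.0443 in DM and 0.0225 in NO. The NO against DM difference was 0.00 with an interval of -0.29 to 0.28.

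Fn1 (chr1:71585520-71653200, minus strand), which encodes the matrix protein fibronectin, had the highest counts of the 10 genes. It measured 44891, 39627 and 35178 normalised counts under GS, 30489, 36006 and 32546 under DM and 29770, 20942 and 25405 under NO. Each NO sample was below each sample of the other media, and GS and DM overlapped. Fn1 fell by 0.66 on the log2 scale in NO against GS (SE 0.18, interval -1.04 to -0.28, adjusted p = 0.022, limma), while the differences of DM from GS (-0.27, adjusted p = 0.438) and of NO from DM (-0.39, adjusted p = 0.152) did not pass. NO replicate 2 was the lowest, and without it the difference from GS was -0.53 with an adjusted p of 0.0585. The adjusted p was also over the threshold without GS replicate 1 (0.0909), GS replicate 2 (0.0693) or NO replicate 3 (0.0624), with no minimum mean (0.0508), and with samples scaled to equal totals (0.0577) or quantile-normalised (a difference of -0.40, adjusted p = 0.167). Extra-embryonic endoderm also makes much fibronectin, and the summed level of 20 markers of that tissue was 28980 to 31843 in GS, 25929 to 28344 in DM and 27594 to 31757 in NO, with Afp and Ttr at 5 or less in all samples. Most of this sum came from Lamc1, Lama1 and Sparc. Of 17 of these markers tested, 3 rose and 1 fell in DM against GS (4.37% and 2.32% of all tested genes). In NO against GS 6 rose and 1 fell (13.4% and 6.64%, median 0.91), and in NO against DM 3 rose (9.01%). Without NO replicate 2 the NO against GS counts were 3 and 1 (median 0.56). Gata6 went from a mean of 10.3 normalised counts under GS to 115 under NO (20, 234 and 90 by sample). Col4a1 went from 328 to 1950 (1114, 3112 and 1624), while Lama1 went from 7824 to 3723. The part of these markers in the Fn1 levels was not tested.

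Vim (chr2:13573927-13582826, plus strand), the intermediate filament protein of mesenchymal cells, measured 5703, 6955 and 5906 normalised counts under GS, 6388, 6470 and 6113 under DM and 4961, 7665 and 5838 under NO. The values overlapped in all comparisons. The difference was 0.04 in DM against GS (interval -0.32 to 0.39), -0.03 in NO against GS (-0.38 to 0.33) and -0.06 in NO against DM (-0.42 to 0.30), so a 2-fold change lay outside every interval.

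The genes whose log2 values followed a member most closely over the 9 samples, given as a description, were Dio3, Pmm2 and Slc25a48 for Snai1 (Pearson r of 0.943 to 0.964), Fbxw17, Akr1b8 and Rab27a for Epcam (0.971 to 0.975) and Nid1, Uck2 and Prdm15 for Fn1 (0.982 to 0.986). The 9 samples share 3 media and are not 9 independent points.

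The other factors that drive EMT moved in both directions. Of 17 such genes 10 were tested: none rose and 1 fell in DM against GS (4.37% and 2.32% of all tested genes), 1 rose and 4 fell in NO against GS (13.4% and 6.64%), and none rose and 2 fell in NO against DM (9.01% and 5.24%). Without NO replicate 2, 2 fell in NO against GS and none in NO against DM. Gsc, the homeobox factor of the organiser, which is also in the mesoderm marker list, measured 41, 43 and 26 normalised counts under GS, 9, 4 and 5 under DM and 7, 5 and 3 under NO. It fell by 2.46 (log2) in DM (adjusted p = 0.0071, limma) and by 2.67 in NO (adjusted p = 0.00257). The median of the 10 was -0.03, -0.08 and -0.25 in the 3 comparisons, where the median of all tested genes was within 0.02 of 0.

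Snai3, another Snail gene, had the widest range of the Snail genes. It measured 29, 11 and 4 normalised counts under GS, 45, 34 and 67 under DM and 88, 415 and 191 under NO, so that the 3 media did not overlap. It rose by 3.98 ± 0.64 on the log2 scale in NO against GS (adjusted p = 0.00193, limma), and the differences of 1.98 in DM against GS (adjusted p = 0.0986) and 2.01 in NO against DM (adjusted p = 0.057) did not pass. Per kb of exon it averaged 9.01 under GS, 29.9 under DM and 142 under NO, against 55.9, 32.9 and 61.3 for Snai1. The DM against GS difference passed without NO replicate 2 (adjusted p = 0.0454) or GS replicate 1 (0.0385). The NO against DM difference passed without GS replicate 1 (0.0418), GS replicate 3 (0.0432) or NO replicate 1 (0.0133), with a pseudocount of 5 (0.0403) and with equal totals (0.048).

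**Figure D4:**
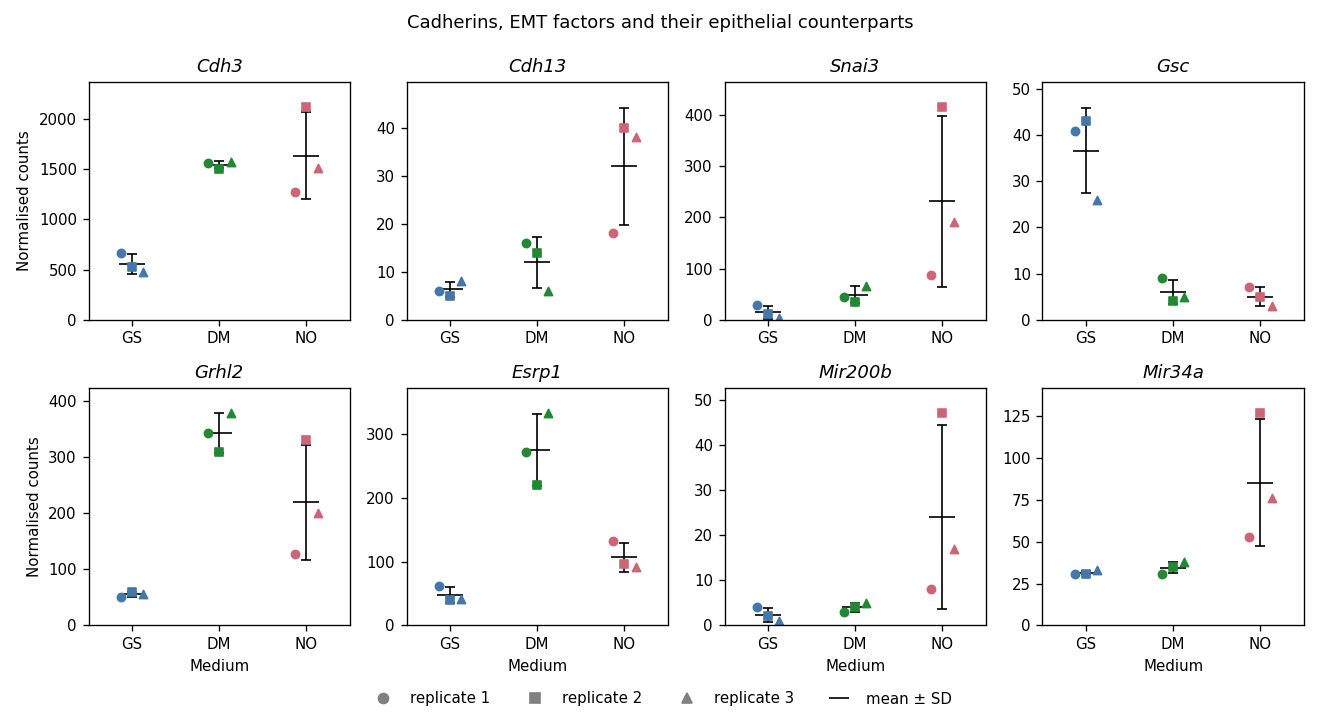
Normalised counts (axes from 0) of 8 genes of the wider lists in each sample by medium, with a symbol for each replicate number and black bars for the mean ± SD (n = 3). Cdh3, Grhl2 and Esrp1 in all DM and NO samples lie above all GS samples, all DM and NO samples of Gsc lie below all its GS samples, and NO replicate 2 holds the highest value of Snai3 (415), Mir200b (47) and Mir34a (127).

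Among 13 tested factors that maintain an epithelial state, 2 rose and 1 fell in DM against GS (4.37% and 2.32% of all tested genes), 2 rose and 1 fell in NO against GS (13.4% and 6.64%), and 1 rose and 1 fell in NO against DM (9.01% and 5.24%). With equal totals, 5 rose in NO against GS. Grhl2, a grainyhead factor that activates Cdh1 and represses Zeb1 in epithelia, measured 51, 59 and 57 normalised counts under GS, 343, 309 and 379 under DM and 128, 331 and 200 under NO. It rose by 2.60 ± 0.29 in DM (adjusted p = 0.000339, limma) and by 1.86 ± 0.29 in NO (adjusted p = 0.0016) against GS. Its NO against DM difference was -0.74 (adjusted p = 0.102), and -1.09 (adjusted p = 0.0138) without NO replicate 2.

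Esrp1, the splicing regulator of epithelial isoforms, measured 62, 40 and 41 in GS, 272, 221 and 333 in DM and 132, 96 and 92 in NO, with no overlap between media. It rose by 2.51 ± 0.25 in DM against GS (adjusted p = 0.000219, limma) and fell by 1.36 in NO against DM (adjusted p = 0.00752), and was still higher in NO than in GS by 1.16 (adjusted p = 0.00886), although after quantile normalisation this last difference was 0.73 with an adjusted p of 0.0876. Elf3, an epithelial ETS factor, fell by 1.16 in DM and by 1.07 in NO against GS. Gata3, which is also in the trophoblast list, rose by 1.73 in NO against DM (adjusted p = 0.0159), but not past the threshold without DM replicate 2 (adjusted p = 0.0599) or with only the 6 samples compared (0.0528).

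Of 37 tested epithelial adhesion and junction genes, 5 rose and 1 fell in DM against GS (4.37% and 2.32% of all tested genes), 15 rose and 1 fell in NO against GS (13.4% and 6.64%), and 10 rose and none fell in NO against DM (9.01% and 5.24%). The list's median was 0.25, 0.60 and 0.34. Without NO replicate 2, 7 rose and 2 fell, 12 rose and 1 fell, and 8 rose and none fell, of 36 tested, with medians of 0.27, 0.31 and 0.21. The shares of all tested genes above do not apply to counts under such alternatives. The 10 that rose in NO against DM became 3 with no mean-variance trend, with only the 6 samples compared or without DM replicate 1, 4 without DM replicate 2 and 6 without NO replicate 3. The 5 that rose in DM against GS became 2 with no mean-variance trend or without DM replicate 1 or 3, and 1 without GS replicate 2 or 3, and the 15 in NO against GS became 9 without GS replicate 2. The tight junction genes Cgn (1.23) and Cldn6 (1.69) and the polarity gene Crb3 (1.07) led in DM against GS, where Crb3 missed the threshold without any 1 of the 6 GS and DM samples (adjusted p of 0.054 to 0.155) or NO replicate 3 (0.0538) and under other settings (up to 0.0674), and Cldn6 without GS replicate 2 or 3 (0.0521 and 0.0552). Ap1m2, a subunit of the epithelial sorting adaptor AP-1B, measured 519, 516 and 505 normalised counts under GS, 578, 510 and 599 under DM and 1205, 2241 and 1910 under NO, a rise of 1.62 ± 0.20 against DM (adjusted p = 0.00189, limma). The desmosomal genes Dsc2 (2.43) and Dsp (1.68) also rose in NO against DM, with DM below both other media. Against GS, Dsp in NO differed by 0.72 (adjusted p = 0.167, limma) and did not pass. Dsc2 rose by 1.28 (adjusted p = 0.0385), but not past the threshold without NO replicate 2 (0.124). Cldn3 fell by 1.19 in NO against GS. The trophoblast list, which shares the keratins with epithelia, summed to 1650 to 1700 normalised counts under GS, 1148 to 1299 under DM and 1419 to 3027 under NO, where 3027 was NO replicate 2. Of its 10 tested genes, none rose and 3 fell in DM against GS (4.37% and 2.32% of all tested genes). In NO against GS 3 rose and 2 fell (13.4% and 6.64%), and in NO against DM 4 rose (9.01%). Krt8 had the highest mean in each medium (811, 663 and 895). Krt7 went from a mean of 7.67 under GS to 232 under NO (65, 484 and 146 by sample). Cdx2 went from 58.3 to 7.33 and Eomes from 278 to 99.7. The part of this list in the rises of the junction genes was not tested.

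Catenins and nectins are the partners of the cadherins at the adherens junction. Of 12 tested catenins and nectins, none rose and 1 fell in DM against GS (4.37% and 2.32% of all tested genes), 1 rose in NO against GS (13.4%), and 2 rose and 3 fell in NO against DM (9.01% and 5.24%). The 3 that fell became none with no mean-variance trend, with only the 6 samples compared or without DM replicate 1, DM replicate 2 or NO replicate 3. Ctnnd2, the neural delta-catenin, measured 250, 251 and 221 in GS, 72, 99 and 48 in DM and 162, 342 and 192 in NO. It fell by 1.76 in DM against GS (adjusted p = 0.00496, limma) and rose by 1.64 in NO against DM (adjusted p = 0.00763), with DM below both other media. Pvrl4, which encodes nectin-4 of epithelia, measured 31, 28 and 38 in GS, 44, 50 and 51 in DM and 193, 1076 and 378 in NO, and rose by 3.12 ± 0.47 against DM (adjusted p = 0.00324). Of 9 other cadherins tested, 2 rose in DM against GS (Cdh3 and Cdh22, where 4.37% of all tested genes rose) and 2 in NO against GS (Cdh3 and Cdh13, where 13.4% rose). Cdh22 measured only 7 to 24 normalised counts, and its call was lost without any 1 of the GS or DM samples (adjusted p of 0.0807 to 0.145) or without NO replicate 3 (0.0577).

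Of 30 tested genes of the mesenchymal matrix and cytoskeleton, 3 rose and 1 fell in DM against GS (4.37% and 2.32% of all tested genes), 10 rose and 2 fell in NO against GS (13.4% and 6.64%), and 5 rose and 2 fell in NO against DM (9.01% and 5.24%), with medians of 0.15, 0.52 and 0.44. Without NO replicate 2 the counts were 7 and 3, 8 and 3, and 4 and 1, with medians of 0.15, 0.23 and 0.15. The 3 that rose in DM against GS also became 7 without NO replicate 1 or with only the 6 samples compared, the 10 in NO against GS became 6 without GS replicate 2 or 3, and the 5 in NO against DM became 2 without DM replicate 1 or 2 and 11 without NO replicate 1. The matrix metalloproteinase gene Mmp2 measured 204, 145 and 144 normalised counts under GS, 337, 360 and 481 under DM and 479, 726 and 579 under NO, and rose by 1.25 ± 0.21 in DM (adjusted p = 0.00462, limma) and by 1.85 ± 0.21 in NO (adjusted p = 0.000588). Des, the muscle intermediate filament gene, rose by 2.33 in NO against GS and by 1.29 in NO against DM, the latter not past the threshold without DM replicate 1, DM replicate 2 or NO replicate 3 (adjusted p of 0.0521 to 0.0696). Thy1, which is also in the fibroblast list, rose by 1.70 in DM and 1.47 in NO against GS.

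Cd44, the hyaluronan receptor, was 54, 31 and 49 in GS, 14, 11 and 9 in DM and 65, 280 and 88 in NO. It fell by 1.87 in DM against GS (adjusted p = 0.0377, limma) and rose by 3.28 ± 0.48 in NO against DM (adjusted p = 0.00288). The first of these calls was lost without any 1 of the GS or DM samples or without NO replicate 3 (adjusted p of 0.0542 to 0.143). Loxl2, a lysyl oxidase that acts with Snai1, fell by 1.88 in NO against DM (adjusted p = 0.0111), though without DM replicate 1 its adjusted p was 0.0509. Fbn1, the microfibril gene, rose by 1.66 in NO against DM.

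**Figure D5:**
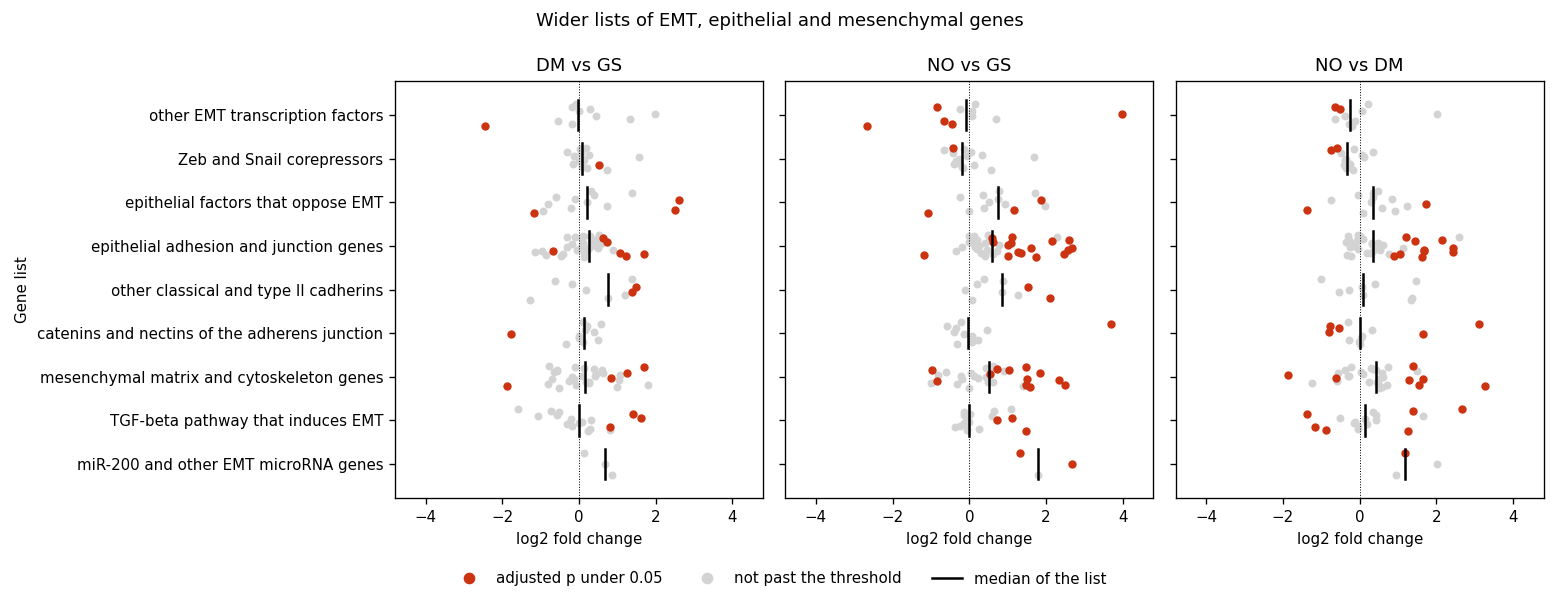
Log2 fold changes of the tested genes of 9 lists around EMT in the 3 comparisons, with 1 point per gene, red for an adjusted p under 0.05 (limma, n = 3 per medium), and a black bar for the median of the list. The epithelial junction and mesenchymal lists both have more red points to the right than to the left in NO against GS, 15 to 1 and 10 to 2.

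In the TGF-beta pathway, which induces EMT in many epithelia, 3 of 17 tested genes rose and none fell in each comparison with GS (4.37% of all tested genes rose in DM and 13.4% in NO), and 3 rose and 3 fell in NO against DM (9.01% and 5.24%). The ligand gene Tgfb1 rose by 1.62 in DM and by 1.10 in NO against GS, the latter with an adjusted p of 0.049 (limma) that was over the threshold in most alternatives. Without NO replicate 2 it was 0.0586. The receptor genes Tgfbr3 (2.66), Tgfbr2 (1.38) and Eng (1.26) rose in NO against DM, with Eng over the threshold (adjusted p = 0.0591) without DM replicate 1. Tgfbr3 measured 176, 157 and 140 normalised counts under GS, 36, 53 and 73 under DM and 145, 887 and 286 under NO, so the DM samples were again the lowest. The Smad repressor gene Skil measured 1628, 1518 and 1729 in GS, 3032, 2899 and 2553 in DM and 1249, 1499 and 1059 in NO, with a rise of 0.80 in DM against GS (adjusted p = 0.0072) and a fall to 0.446-fold in NO against DM (adjusted p = 0.00195). Tgfbi, a matrix target of the pathway, rose by 1.41 in DM against GS and fell by 1.38 in NO against DM. The DM call of Tgfbi was lost without GS replicate 2 or 3 or any 1 of the DM replicates (adjusted p of 0.0525 to 0.0774), the NO against DM call without DM replicate 2 (0.051), and the DM call of Tgfb1 without GS replicate 2 or 3 or DM replicate 3 (0.0691 to 0.0922).

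Of 17 tested corepressors and chromatin partners of Zeb and Snail, 1 rose in DM against GS (4.37% of all tested genes), 1 fell in NO against GS (6.64%) and 2 fell in NO against DM (5.24%), with medians of 0.09, -0.19 and -0.33. None of those that passed reached 2-fold. With samples scaled to equal totals, 2 rose and none fell in each comparison with GS, and 1 fell in NO against DM.

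Of the 10 microRNA genes of the list, 7 had a row and 3 were tested. These rows count reads of the longer precursor transcripts, not the mature microRNAs printed above. Mir200b (chr4:156055681-156055750, minus strand) measured 4, 2 and 1 normalised counts under GS, 3, 4 and 5 under DM and 8, 47 and 17 under NO. It rose by 2.67 ± 0.64 in NO against GS (adjusted p = 0.0138, limma), with all NO samples above all others. Mir200b averaged 2.33 under GS, 4.0 under DM and 24.0 under NO, so it met the minimum mean of 5 only through NO. The filter thus favoured a higher NO value. The difference from DM was 2.01 (adjusted p = 0.057), which passed with a pseudocount of 5 (0.0492), with equal totals (0.0494) and without NO replicate 1 (0.0148), and without NO replicate 2 the difference from GS was 2.03 with an adjusted p of 0.0575. Without GS replicate 3 it was 2.35 with an adjusted p of 0.0577. Mir200a, also tested, measured 3, 1 and 1 under GS, 3, 3 and 5 under DM and 7, 20 and 3 under NO, and the media overlapped. Its differences of 1.80 in NO against GS (adjusted p = 0.0792, limma) and 0.94 in NO against DM (adjusted p = 0.369) did not pass.

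Mir34a (chr4:150068454-150068555, plus strand) measured 31, 31 and 33 in GS, 31, 35 and 38 in DM and 53, 127 and 76 in NO, and rose by 1.19 ± 0.32 against DM (adjusted p = 0.0304, limma) and by 1.31 ± 0.32 against GS (adjusted p = 0.0143). Without NO replicate 2 the difference from DM was 0.86 with an adjusted p of 0.0944, and the call was also lost without any 1 of the DM replicates or NO replicate 3 (0.0579 to 0.0953), with only the 6 samples compared (0.0753), with no minimum mean (0.054) and after quantile normalisation (0.0649). Beside these rows, Zeb1, with 5 matches to the miR-200b seed, differed between NO and DM by 0.00. Zeb2, also with 5, differed by -0.80 (interval -2.12 to 0.52). Snai1, with 1 match to the miR-34a seed and 1 to the miR-200b seed, was higher in NO than in DM by 0.87. Effects of the microRNAs on these genes were not tested. The mature microRNAs and the proteins were not measured in these samples.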

How the data were processed

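Total RNA of 9 samples (3 per medium), depleted of ribosomal RNA, was sequenced on an Ion Torrent Proton. The authors trimmed reads with Reaper, aligned them to GRCm38 with STAR 2.4.0a, counted them per gene with featureCounts 1.4.5-p1, leaving out reads assigned to several genes or positions, and scaled the counts by DESeq2. What the authors deposited is these normalised counts, rounded to whole numbers and treated here as a score rather than raw counts, so no count model was run. Whether counting used strand is not given in the sources used here.

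Groups followed the sample labels. Genes with a mean over 5 were tested on log2(value + 1) with limma 3.58.1 (R 4.3.3; trend, all 9 samples in 1 fit, two-sided), which was first tested on simulated data. Called genes had an adjusted p under 0.05 and at least a 2-fold change. Shares of all tested genes were taken from this fit alone. Counts under other settings or without a replicate have no such share beside them. Fold changes on this scale understate those of low genes. Exon lengths, coordinates and UTRs are from GENCODE on GRCm38, promoters and microRNAs from RefSeq. The members and lists were chosen with earlier results of these data known. From each wider list, up to 3 called genes per direction and comparison with the smallest adjusted p were named.

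Deviations from the group means were correlated between NO and DM samples of the same number (correlations of 0.1585, 0.1674 and 0.2959), which met the criterion used here for paired samples. The values printed come from the fit without a replicate block, and the fit with it is an alternative. The labels do not state what a number stands for.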

Additional observations from a re-analysis of the deposited data

How the results depend on the processing

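All changes of side below kept their direction. The number of EMT genes called (2-fold and adjusted p under 0.05) in DM against GS was 0 and became 1 with no minimum fold change. In NO against GS it was 1, became 0 with no minimum mean, with a minimum mean of 50 or after quantile normalisation, became 3 with no minimum fold change, and was 0 to 1 without each replicate in turn. In NO against DM it was 0, became 1 with no minimum fold change, and was 0 to 1 without each replicate. The number past the F test was 3, and 1 to 5 without each replicate, with 5 without NO replicate 1. The number of wider list genes called was 15 in DM against GS, where 4.20% of all tested genes were called. It was 9 to 20 without each replicate, lowest without GS replicate 2 or 3 and highest without NO replicate 2. In NO against DM it was 25, where 8.55% of all tested genes were called. There it became 15 from only the 6 samples compared and 16 without a mean-variance trend. Without each replicate it was 13 to 37 (13 without DM replicate 1, 37 without NO replicate 1). The number of genes tested in each list is given above. Quantile normalisation moved the median of all tested genes in NO against GS to -0.11. Of all member values under the alternatives, 534 stayed on their side of the adjusted p threshold, 21 no longer passed it and 6 newly passed it.

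With the replicate number as a replicate block, no call of the 10 genes changed. Among the other named genes the block ended the call of Crb3 (log2 fold change 1.07, adjusted p = 0.0577), Cdh22 (1.39, adjusted p = 0.0812) and Cd44 (-1.87, adjusted p = 0.0609) in DM against GS and of Tgfb1 (1.10, adjusted p = 0.0636) in NO against GS. In the comparisons with GS the samples share only a number: their deviations correlated at -0.2321 to 0.0503. The causes of these changes were not tested. With 3 samples a medium, low genes such as Zeb2 and Snai2 limit the precision most.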
